A study of Homo sapiens with 17 samples.

Results

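The circadian clock genes described here are 10 genes: CLOCK, BMAL1 (also called ARNTL), PER1, PER2, PER3, CRY1, CRY2, NR1D1, NR1D2 and DBP. They were selected as named core clock and clock output genes with earlier results of these data in view, and are read here by the presence of H2A.Z intervals within 1 kb of either annotated gene end. They are 10 of 20033 protein-coding genes of GRCh38.p14, and all 10 were found in the annotation. Because presence and within-list percentile are what the genes were chosen by, both are given as description and carry no test for these genes.

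The data are lists of peaks (intervals) from Flag ChIP-seq in Caco-2/15, a line from a human colon tumour that differentiates towards absorptive enterocytes after reaching confluence. The groups were H2A.Z.2 postconfluent, H2A.Z.1 postconfluent, H2A.Z.2 subconfluent and H2A.Z.1 subconfluent cells, with 2 lists each (Exp1 and Exp2), and postconfluent cells were kept 7 days past confluence. By the labels every group carried a Flag tag on 1 allele only (heterozygous): of H2AFV, now H2AZ2, for H2A.Z.2, or of H2AFZ, now H2AZ1, for H2A.Z.1. The untagged allele and the other isoform were therefore not captured. The labels do not say whether a tagged line is 1 clone, or whether Exp1 and Exp2 were separate cultures, so the spread between them may be partly technical. Of 17 labelled samples, the 8 Flag precipitations are analysed, and the other 9 are not analysed here.

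H2A.Z is a histone variant that replaces H2A in nucleosomes flanking many promoters and enhancers. The mammalian clock is a feedback loop. The bHLH-PAS factors CLOCK and BMAL1 bind E-boxes and activate the PER and CRY genes, whose protein products then inhibit CLOCK and BMAL1. In a linked loop, NR1D1 and NR1D2 (REV-ERB alpha and beta) are nuclear receptors that repress BMAL1 through RORE sites, and DBP is a PAR bZIP activator that binds D-boxes and is itself driven through E-boxes. In the intestinal epithelium this clock is known for daily rhythms of proliferation, transport and digestion.

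The deposited lists held 39086 and 51348 intervals for H2A.Z.2 postconfluent, 56427 and 79425 for H2A.Z.1 postconfluent, 55788 and 30603 for H2A.Z.2 subconfluent and 46636 and 66522 for H2A.Z.1 subconfluent cells. To make presence comparable, only the 30603 most significant intervals (by −log10 p) of each list were kept, as many as the shortest list holds. The shortest, H2A.Z.2 subconfluent Exp2, stands apart, because it was kept down to a −log10 p of 5.19, whereas the 7 others ended at values of 9.99 to 16.8. A percentile below is the rank of an interval by the authors' fold enrichment within its own reduced list, from 0 to 100, taken from the strongest interval near the gene end. A percentile orders intervals within a library. It is not an amount of histone, and more H2A.Z per cell cannot be told apart from more cells that carry it. Peak lists hold no read depth. An absent interval is one below the threshold of the list, which is not an absence of H2A.Z.

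Of the 10 clock genes, 8 had an interval at the 5′ end in all 8 reduced lists. The exceptions were PER1, in 7 lists, and PER2, in 5. Over all protein-coding genes, 10917 (54.5%) had an interval within 1 kb of either end in all 8 lists. No clock gene had an interval at the 3′ end in any reduced list. Of the 10921 genes with a known strand and an interval, 9371 (85.8%) had intervals only at the 5′ end, 3.58% only at the 3′ end and 10.6% at both.

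**Figure D1:**
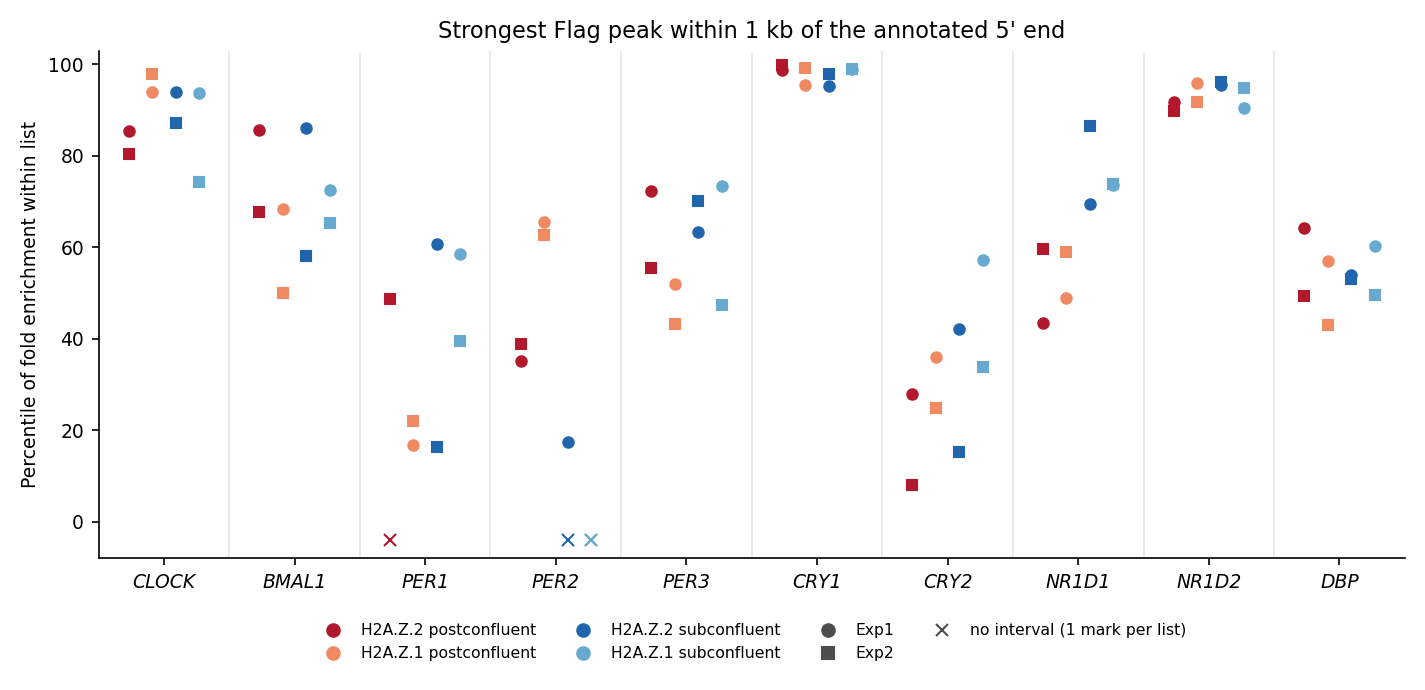
Percentile of fold enrichment within the reduced list (vertical axis, 0 to 100) of the strongest interval within 1 kb of the 5′ end, for each of the 10 clock genes and 8 lists. Colours stand for isoform and state, circles for Exp1, squares for Exp2, and a cross for a list with no interval. CRY1 and NR1D2 lie in a narrow band near the top. Among the genes with 8 values, CRY2 has the lowest mean, and only NR1D1 has all postconfluent points below all subconfluent points.

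CLOCK encodes one partner of the activator and lies on the minus strand of chromosome 4 (55427903 to 55546909). Its percentiles were 85.5 and 80.4 in H2A.Z.2 postconfluent, 93.9 and 97.9 in H2A.Z.1 postconfluent, 93.9 and 87.3 in H2A.Z.2 subconfluent and 93.8 and 74.3 in H2A.Z.1 subconfluent lists. The mean was 88.4 ± 8.02 (SD, n = 8 lists), and 79.1% of the genes present in all 8 lists had a lower mean. The postconfluent range of 80.4 to 97.9 and the subconfluent range of 74.3 to 93.9 overlapped. The intervals ran across the 5′ end and over the second RefSeq start 977 bp further in, with the summit upstream of the 5′ end, at −478 to −154 bp, in all 8 lists.

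BMAL1, the partner of CLOCK, lies on the plus strand of chromosome 11 (13276652 to 13387266). At its 5′ end the percentiles were 85.7 and 67.8 in H2A.Z.2 postconfluent, 68.4 and 50.1 in H2A.Z.1 postconfluent, 86.2 and 58.2 in H2A.Z.2 subconfluent and 72.6 and 65.3 in H2A.Z.1 subconfluent lists. In each group Exp1 was the higher of the pair, by up to 28.0 percentiles. The mean was 69.3 ± 12.4 (SD, n = 8), and 34.4% of genes had a lower mean.

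A second stretch of intervals lay 1073 to 2365 bp inside BMAL1, around and beyond the RefSeq start at 13277790, which lies 1138 bp inside the annotated gene. It was present in all 8 lists, at percentiles of 80.6 to 97.5 in postconfluent and 84.4 to 97.6 in subconfluent lists. Its mean of 90.2 ± 6.37 (SD, n = 8) stood above the 69.3 at the annotated end, and the inner stretch was the stronger in 7 of the 8 lists. BMAL1 therefore ranks lower by the outermost annotated base than by the inner start, and the 1 kb window used for the ranking holds only the outer stretch.

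The PER genes encode the period proteins, which carry CRY proteins into the repressive complex. PER1 lies on the minus strand of chromosome 17 (8140472 to 8152404). It had no interval at its 5′ end in H2A.Z.2 postconfluent Exp1 and a percentile of 48.6 in H2A.Z.2 postconfluent Exp2. It had 16.8 and 22.1 in H2A.Z.1 postconfluent, 60.8 and 16.3 in H2A.Z.2 subconfluent and 58.6 and 39.6 in H2A.Z.1 subconfluent lists. The groups overlapped, and the mean over the 7 lists was 37.5 ± 19.3 (SD). In the list without one, the nearest reduced-list interval was 1774 bp from the 5′ end, and the whole list held a weaker interval at the 5′ end, at percentile 15.5 of that whole list. A separate stretch between −2437 and −1652 bp of the PER1 5′ end (upstream) was present in all 8 lists, at 26.4 to 60.3 in postconfluent and 42.8 to 58.7 in subconfluent lists.

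The 250 bases before the PER1 start are shown because they hold an E-box, the site that CLOCK and BMAL1 bind, in capitals. It begins at position −173, counted from the start with −1 as the base just before it, and intervals overlapped this 300-base promoter (250 before to 50 after the start) in the same 7 lists that had one at the 5′ end. The coordinates are chr17:8152405-8152654, minus strand, and the sequence, like all below, is from RefSeq on GRCh38.p14 and is read 5′ to 3′ along the gene.
PER1: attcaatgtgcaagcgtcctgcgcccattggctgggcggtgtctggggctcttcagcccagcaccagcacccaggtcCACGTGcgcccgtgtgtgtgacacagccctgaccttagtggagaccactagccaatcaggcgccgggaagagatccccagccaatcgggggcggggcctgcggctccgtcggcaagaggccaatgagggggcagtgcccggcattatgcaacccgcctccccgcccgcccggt

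PER2 lies on the minus strand of chromosome 2 (238244044 to 238300065). Its 5′ end had an interval in all 4 postconfluent lists, at percentiles of 35.1 and 39.0 for H2A.Z.2 and 65.5 and 62.6 for H2A.Z.1. In subconfluent lists it had 17.5 in H2A.Z.2 Exp1 and no interval in H2A.Z.2 Exp2 or in either H2A.Z.1 list. Presence in all 4 postconfluent lists and at most 1 subconfluent list was found for 73 of 20033 genes (0.364%). This pattern was taken from PER2 and counted in 1 direction only. The 20033 include 10885 genes with an interval at the same end in all 8 lists, which cannot show it. In the whole lists the PER2 5′ end was present in 6 of 8, with 49.2, 63.6, 81.3 and 85.6 in the postconfluent lists, 53.6 in H2A.Z.2 subconfluent Exp1 and 18.1 in H2A.Z.1 subconfluent Exp2.

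No clock gene, PER2 included, was present in all 4 lists of one state and absent from all 4 of the other, a pattern that 45 of 20033 genes had (0.225%). Leaving out H2A.Z.2 subconfluent Exp1, the only subconfluent list with a PER2 interval at the 5′ end, gave PER2 that pattern by construction. In that setting 63 of 20033 genes had it. Leaving out H2A.Z.2 subconfluent Exp2, the list that stands apart, left 1 of 3 subconfluent lists with a PER2 interval. Presence in all 4 lists of one isoform and none of the other was found for 10 of 20033 genes (0.0499%) and for no clock gene.

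Inside PER2 the picture differed from that at its 5′ end. Intervals 4 to 7 kb inside the gene were present in all 8 lists, with the strongest at 63.0 to 74.9 in postconfluent and 49.2 to 65.0 in subconfluent lists. Intervals 10 to 13 kb inside were also present in all 8, at 41.2 to 73.7 in postconfluent and 58.2 to 69.0 in subconfluent lists. The RefSeq start given for PER2 in the promoter table, 238288610, lies between the intervals of this inner stretch, 11455 bp inside the annotated end. Both inner stretches were present in all 8 lists, so the uneven presence of PER2 applies to the outermost annotated end. By percentile the states overlapped in both. At 4 to 7 kb only 1 subconfluent list, H2A.Z.1 Exp1 at 65.0, reached the postconfluent range.

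**Figure D2:**
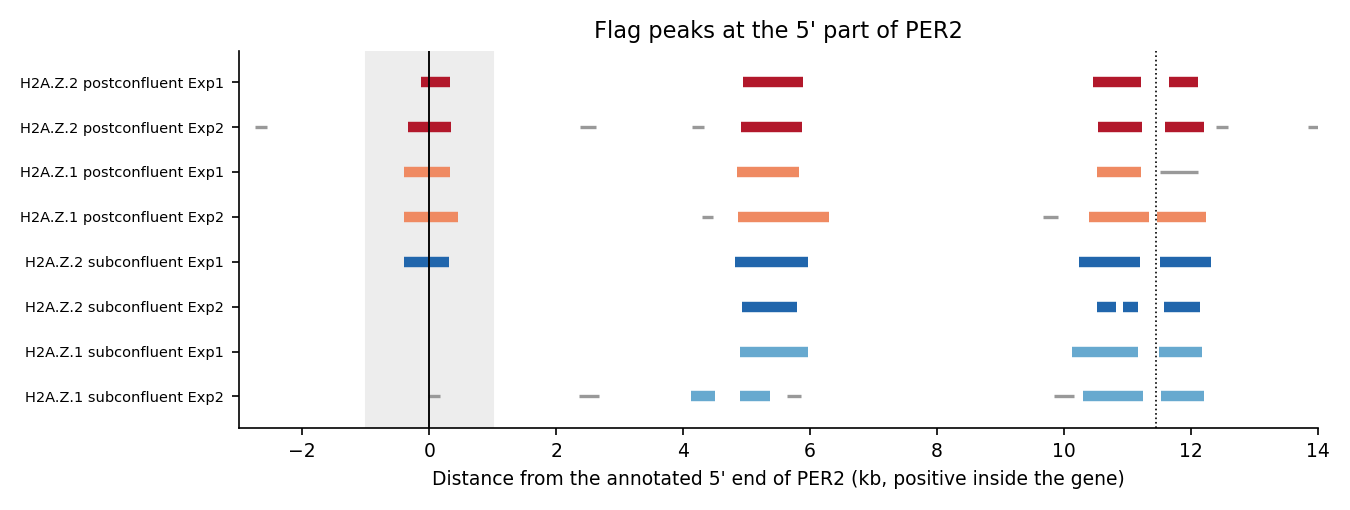
Flag intervals in each of the 8 lists (rows, postconfluent above subconfluent) against distance from the annotated 5′ end of PER2 in kb, positive inside the gene. Thick bars are intervals of the reduced lists, thin grey bars weaker intervals of the whole lists, the shaded band is the 1 kb window and the dotted line the RefSeq start 11455 bp inside. The window holds thick bars in 5 lists, and the stretches near 5 kb and 11 kb hold them in all 8.

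The 250 bases before that inner PER2 start are shown because this is the start of PER2 that intervals accompanied in every list. The 300-base promoter held 60 CpG, against a median of 14 over all 35116 RefSeq promoters. A D-box (TTACGTAA) begins at −3 and so runs past the stretch shown, which has no motif in capitals. The coordinates are chr2:238288611-238288860, minus strand.
PER2: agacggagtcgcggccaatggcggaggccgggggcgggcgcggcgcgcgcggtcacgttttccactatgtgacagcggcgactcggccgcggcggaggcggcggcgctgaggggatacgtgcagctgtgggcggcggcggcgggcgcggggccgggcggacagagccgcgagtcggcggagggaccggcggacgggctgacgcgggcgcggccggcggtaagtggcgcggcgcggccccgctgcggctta

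PER3 lies on the plus strand of chromosome 1 (7784291 to 7845177). Its strongest interval had percentiles of 72.4 and 55.6 in H2A.Z.2 postconfluent, 52.1 and 43.3 in H2A.Z.1 postconfluent, 63.3 and 70.1 in H2A.Z.2 subconfluent and 73.5 and 47.5 in H2A.Z.1 subconfluent lists. The states and the isoforms overlapped, and the mean of 59.7 ± 11.8 (SD, n = 8) exceeded that of 19.4% of genes. In every list PER3 had a pair of intervals with 737 to 1016 bp free of intervals between them. The upstream member of the pair was the stronger in 6 of 8 lists, and it ranged over 11.7 to 55.6 in postconfluent and 47.5 to 73.5 in subconfluent lists. The downstream one ranged over 23.4 to 72.4 in postconfluent and 9.54 to 59.4 in subconfluent lists.

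The free stretch contains the first PER3 start, and no interval of any list overlapped its 300-base promoter. The 250 bases before that start (chr1:7784041-7784290, plus strand) are shown because they lie between the flanking intervals and hold a D-box, the site of DBP and its relatives, in capitals, at −177.
PER3: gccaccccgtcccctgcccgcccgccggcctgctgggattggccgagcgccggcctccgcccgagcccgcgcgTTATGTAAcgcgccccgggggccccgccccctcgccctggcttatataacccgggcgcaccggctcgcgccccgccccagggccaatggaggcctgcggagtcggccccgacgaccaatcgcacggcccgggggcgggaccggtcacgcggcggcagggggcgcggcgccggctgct

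The CRY genes encode cryptochromes, the repressors that act directly on the CLOCK and BMAL1 dimer. By mean percentile they stood at opposite ends of the 8 clock genes present in every list. CRY1 lies on the minus strand of chromosome 12 (106991364 to 107093549). Its percentiles were 98.8 and 99.8 in H2A.Z.2 postconfluent, 95.5 and 99.1 in H2A.Z.1 postconfluent, 95.4 and 97.9 in H2A.Z.2 subconfluent and 99.0 and 99.1 in H2A.Z.1 subconfluent lists. All 8 lists were above 95, with a mean of 98.1 ± 1.73 (SD, n = 8), and 98.3% of genes had a lower mean. A single interval of 1605 to 1778 bp covered the 5′ end in each list, with the summit between −244 and 281 bp of it.

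CRY2 lies on the plus strand of chromosome 11 (45847118 to 45883244). Its percentiles were 28.1 and 8.13 in H2A.Z.2 postconfluent, 36.1 and 24.9 in H2A.Z.1 postconfluent, 42.1 and 15.2 in H2A.Z.2 subconfluent and 57.3 and 34.0 in H2A.Z.1 subconfluent lists. Exp1 was higher than Exp2 in each of the 4 groups. The mean of 30.7 ± 15.4 (SD, n = 8) exceeded that of 1.52% of genes. By state, CRY2 averaged 24.3 ± 11.8 in postconfluent and 37.1 ± 17.5 in subconfluent lists (SD, n = 4 each), and the ranges overlapped. The intervals lay in a stretch of 189 bp before to 1197 bp after the 5′ end, in 1 or 2 pieces. CRY1 was above CRY2 in every list, since the lowest CRY1 percentile was 95.4 and the highest of CRY2 was 57.3.

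The bases before the CRY1 start (chr12:107093550-107093799, minus strand) and before the second CRY2 start (chr11:45847225-45847474, plus strand, 357 bp inside the annotated end) are shown side by side for this contrast. The CRY1 stretch holds none of the motifs searched, and the CRY2 stretch holds a RORE core (TAGGTCA) in capitals. The 300-base promoters held 31 CpG for CRY1 and 24 for this CRY2 start, and intervals overlapped both in all 8 lists.
CRY1: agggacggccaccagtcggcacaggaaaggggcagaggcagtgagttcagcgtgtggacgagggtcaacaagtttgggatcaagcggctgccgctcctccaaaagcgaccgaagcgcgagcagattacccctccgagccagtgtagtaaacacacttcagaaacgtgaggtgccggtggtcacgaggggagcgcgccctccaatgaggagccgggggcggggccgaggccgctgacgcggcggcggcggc
CRY2: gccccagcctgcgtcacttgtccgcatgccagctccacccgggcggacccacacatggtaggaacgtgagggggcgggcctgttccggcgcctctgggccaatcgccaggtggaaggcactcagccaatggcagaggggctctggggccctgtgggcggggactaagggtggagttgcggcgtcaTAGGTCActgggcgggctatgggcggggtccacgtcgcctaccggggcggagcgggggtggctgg

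NR1D1 lies on the minus strand of chromosome 17 (40092793 to 40100589). Its percentiles were 43.6 and 59.6 in H2A.Z.2 postconfluent and 49.0 and 58.9 in H2A.Z.1 postconfluent lists, against 69.5 and 86.5 in H2A.Z.2 subconfluent and 73.6 and 74.0 in H2A.Z.1 subconfluent lists. Every postconfluent list was below every subconfluent list, with means of 52.8 ± 7.81 in postconfluent and 75.9 ± 7.36 in subconfluent lists (SD, n = 4 each). Without H2A.Z.2 subconfluent Exp2, which gave the highest value, the subconfluent range was 69.5 to 74.0. Leaving out a list cannot make separated ranges overlap, so this is no further support. NR1D1 was the only one of the 8 ranked clock genes with states that did not overlap. Among all 10885 ranked genes, 579 (5.32%) had states that did not overlap, 283 of them (2.6%) with postconfluent below subconfluent, and nothing is read from NR1D1 being one of them. By isoform, 231 genes (2.12%) and no clock gene had ranges that did not overlap.

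The NR1D1 pattern by state was also seen in lists reduced to 15301 intervals, at 6.90 to 21.9 in postconfluent and 39.1 to 73.0 in subconfluent lists. It was seen too when intervals were ranked by −log10 p, at 58.3 to 71.8 in postconfluent and 79.3 to 91.9 in subconfluent lists. Both settings reuse the same intervals and are no further support. The share of all genes without overlap was not counted under them. In the whole lists, which differ in length, the states overlapped, with 55.8 to 84.2 in postconfluent and 82.7 to 88.0 in subconfluent lists. A single interval spanned the NR1D1 5′ end in each list, 1138 to 1953 bp wide, and its summit lay within −351 to 167 bp. The 250 bases before the start (chr17:40100590-40100839, minus strand) are shown because this is the promoter under that interval. They hold none of the motifs searched, and the 300-base promoter held 24 CpG.
NR1D1: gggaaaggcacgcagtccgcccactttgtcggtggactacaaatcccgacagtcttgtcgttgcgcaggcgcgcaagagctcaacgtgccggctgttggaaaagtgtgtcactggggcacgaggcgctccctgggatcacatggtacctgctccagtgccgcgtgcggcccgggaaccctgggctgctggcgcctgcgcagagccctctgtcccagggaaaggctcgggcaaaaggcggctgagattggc

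NR1D2 lies on the plus strand of chromosome 3 (23945286 to 23980617). Its percentiles were 91.7 and 89.8 in H2A.Z.2 postconfluent, 96.0 and 91.7 in H2A.Z.1 postconfluent, 95.4 and 96.2 in H2A.Z.2 subconfluent and 90.4 and 94.9 in H2A.Z.1 subconfluent lists. The mean was 93.3 ± 2.64 (SD, n = 8), above that of 90.3% of genes, and the states and isoforms overlapped. Like PER3, NR1D2 had a pair of intervals in every list, with 916 to 1080 bp between them. The upstream one ranged over 81.8 to 96.0 in postconfluent and 68.8 to 92.2 in subconfluent lists, and the downstream one over 88.4 to 91.7 in postconfluent and 90.4 to 96.2 in subconfluent lists. The downstream one was the stronger in all lists but H2A.Z.1 postconfluent Exp1. In 7 lists the stronger NR1D2 interval, the downstream one, also lay within 1 kb of the 5′ end of NKIRAS1, 1276 bp away. The downstream interval was present in all 8 lists, between 872 and 1444 bp, so the intervals cannot be assigned to NR1D2 alone.

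The second NR1D2 start, 835 bp inside the annotated end, lies in the free stretch, and intervals overlapped its 300-base promoter in only 2 of 8 lists. The 250 bases before it (chr3:23945871-23946120, plus strand) are shown because they hold sites for several classes of clock factor at once. In capitals, in order, are a D-box at −194 (TTACATAA), an E-box at −155, a RORE core at −133 (TGACCCA) and a second E-box at −105. TTACATAA and TGACCCA are the other-strand readings of TTATGTAA and TGGGTCA.
NR1D2: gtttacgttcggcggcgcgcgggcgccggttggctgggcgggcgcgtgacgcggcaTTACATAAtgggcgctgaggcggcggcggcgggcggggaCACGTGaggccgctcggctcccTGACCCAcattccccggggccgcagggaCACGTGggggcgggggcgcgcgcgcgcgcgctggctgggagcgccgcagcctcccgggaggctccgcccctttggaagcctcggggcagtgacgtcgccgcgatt

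**Figure D3:**
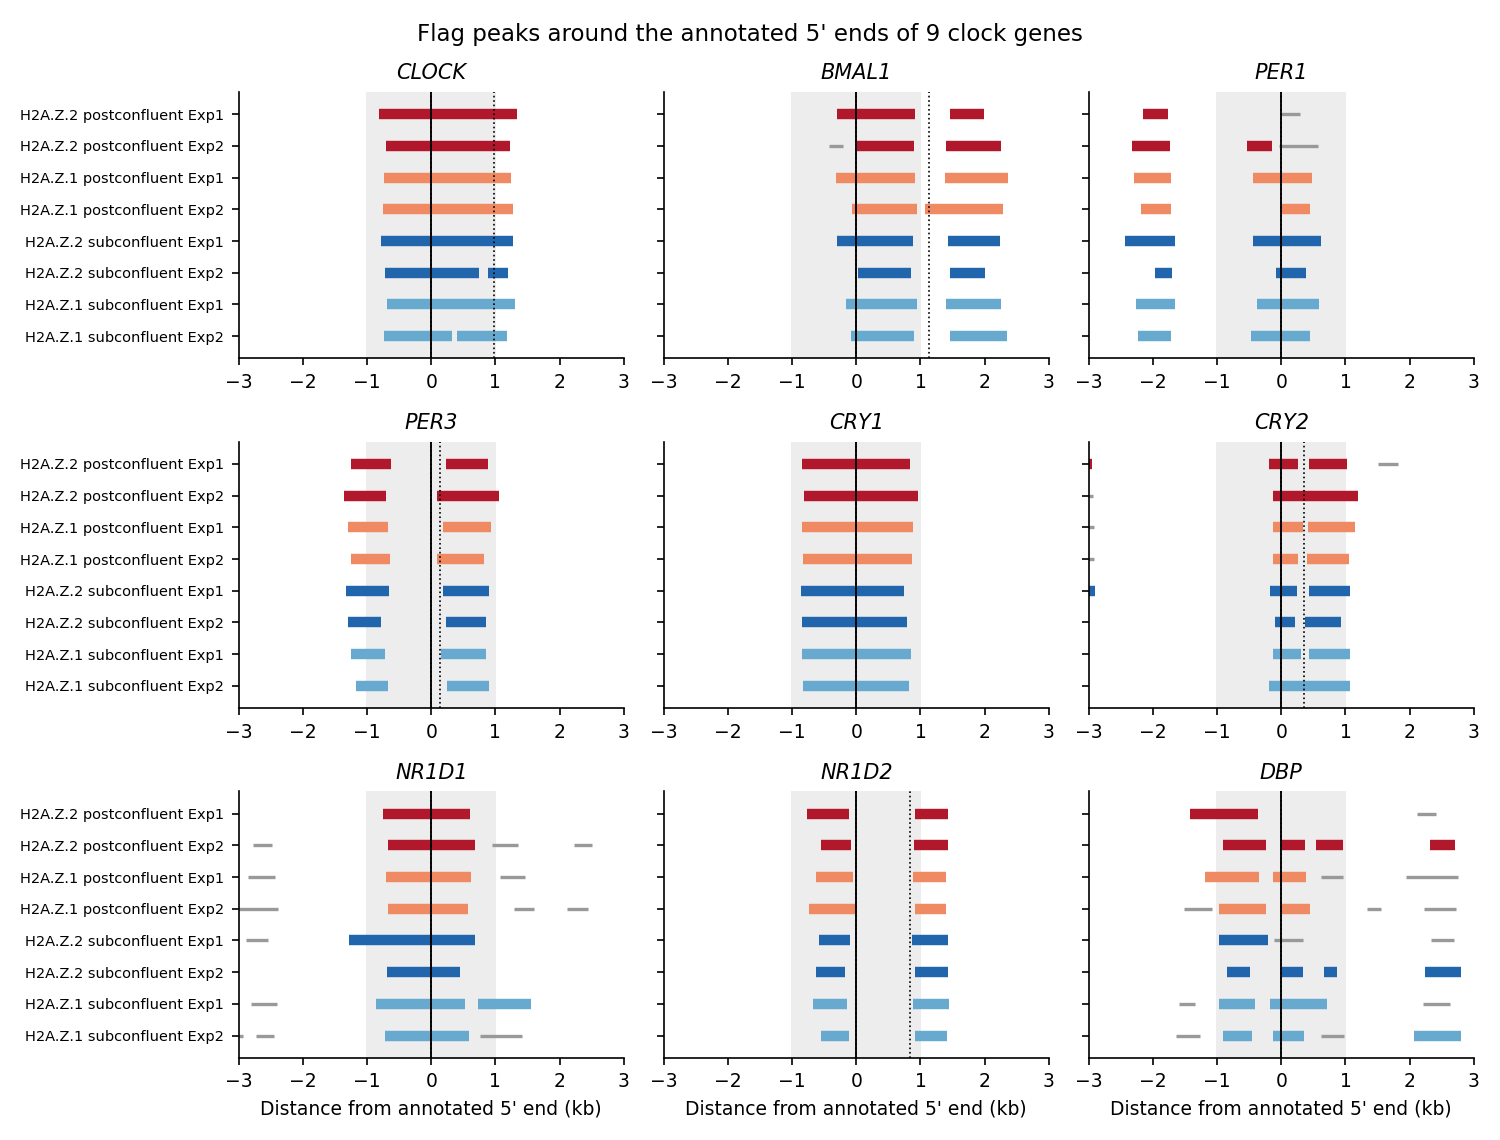
Flag intervals within 3 kb of the annotated 5′ ends of 9 clock genes in each of the 8 lists (rows, postconfluent above subconfluent), against distance in kb, positive inside the gene. Thick bars are reduced-list intervals, thin grey bars weaker whole-list intervals, shaded bands the 1 kb window and dotted lines further RefSeq starts. CRY1 and NR1D1 have 1 interval across the 5′ end, and PER3 and NR1D2 have a pair that leaves the 5′ end free.

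DBP, a clock output gene, lies on the minus strand of chromosome 19 (48630030 to 48637379). Its percentiles were 64.3 and 49.5 in H2A.Z.2 postconfluent, 57.1 and 43.1 in H2A.Z.1 postconfluent, 54.0 and 53.1 in H2A.Z.2 subconfluent and 60.2 and 49.6 in H2A.Z.1 subconfluent lists. The mean of 53.8 ± 6.69 (SD, n = 8) exceeded that of 13.05% of genes. By state DBP averaged 53.5 ± 9.19 in postconfluent and 54.2 ± 4.43 in subconfluent lists (SD, n = 4 each). In 6 lists the strongest summit was upstream of the 5′ end, and the interval there was present in all 8 lists at 30.8 to 64.3. An interval was shared with an annotated end of CA11, 567 bp from the DBP 5′ end, in all 8 lists, so these intervals too cannot be assigned to 1 gene.

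Ordered by mean percentile, the 8 clock genes present in every list ran CRY1, NR1D2, CLOCK, BMAL1, NR1D1, PER3, DBP and CRY2. The ranges of all 7 neighbouring pairs overlapped. The upper gene was the higher in 8 of 8 lists for DBP over CRY2 and in 7 for CLOCK over BMAL1. It was the higher in 6 lists for CRY1 over NR1D2, NR1D2 over CLOCK, NR1D1 over PER3 and PER3 over DBP, and in 4 for BMAL1 over NR1D1. The median of the 8 clock gene means was 66.8, against 76.8 over the 10885 genes ranked in all lists (quartiles 63.7 and 86.8). These 10885 have an interval at the same end in all 8 lists, whereas the 10917 above may have it at different ends in different lists.

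**Figure D4:**
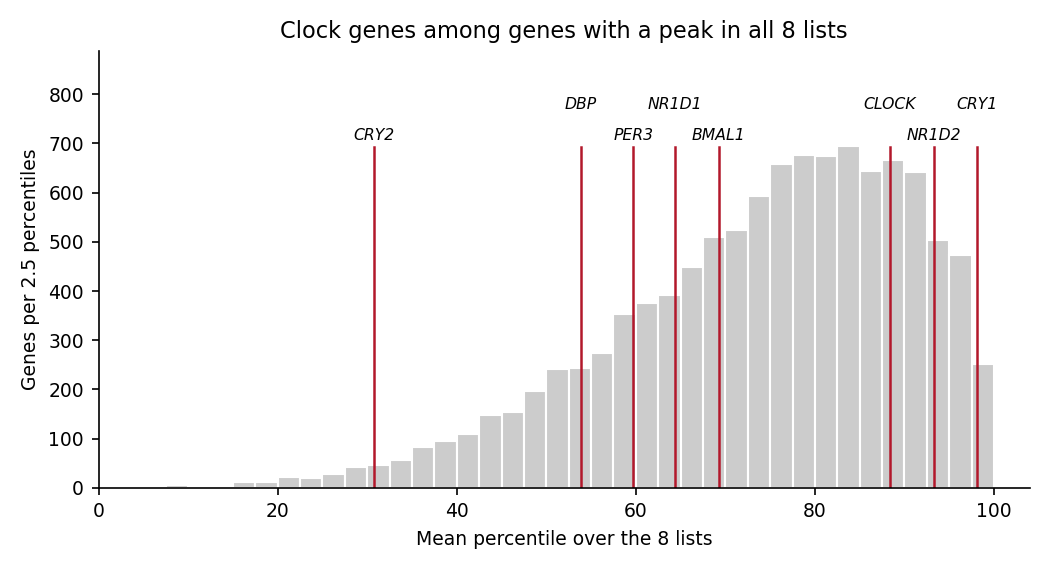
Number of genes per 2.5 percentiles (vertical axis) against mean percentile over the 8 lists (horizontal axis) for the 10885 genes with an interval at the same end in every list, with a red line at each of the 8 clock genes among them. CRY1, NR1D2 and CLOCK lie above the all-gene median of 76.8, and BMAL1, NR1D1, PER3, DBP and CRY2 below it.

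No clock gene had its nearest interval close to the edge of the 1 kb window at its 5′ end. Where an interval was present, the farthest lay 370 bp from the 5′ end (DBP), and those of PER3 lay 83 to 243 bp from it. Where none was present, the nearest lay 1774 bp away for PER1 and up to 4922 bp away for PER2. The strongest interval did lie at the edge for NR1D2. In all lists but H2A.Z.1 postconfluent Exp1 its summit was 1045 to 1128 bp inside, beyond the window. The inner stretch of BMAL1 began just outside the window, at 1073 bp, only in H2A.Z.1 postconfluent Exp2. In the other lists it began at 1377 to 1465 bp. At 3′ ends the nearest reduced-list intervals lay 1992 to 11487 bp away for PER1, 2627 to 34206 bp for CRY2, 3109 to 3975 bp for CRY1 and 3359 to 4073 bp for PER2. In the whole lists the nearest interval came within 561 bp of the PER2 3′ end, so PER2 gains a 3′ interval there.

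To compare states and isoforms across genes, percentiles of the 10885 genes were ranked within each list and turned into normal scores, in units of SD, and limma was fitted to all of them. With Benjamini-Hochberg adjustment, 5 genes (0.0459%) differed between postconfluent and subconfluent lists, 4 higher and 1 lower in postconfluent, and 995 had an unadjusted p under 0.05. None differed between H2A.Z.2 and H2A.Z.1 (0%, with 406 at an unadjusted p under 0.05), and none had a state effect that differed between isoforms (0%, with 341). All 8 ranked clock genes were in the fit and none was called in any of the 3 contrasts. Nothing is read from that, because the scores rank the percentiles these genes were chosen by, and their differences below are description.

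The score differences of clock genes, postconfluent minus subconfluent, were 0.18 ± 0.374 for CLOCK and −0.12 ± 0.389 for BMAL1 (± SE of the fit over 8 lists). They were −0.33 ± 0.363 for PER3, 0.20 ± 0.358 for CRY1, −0.41 ± 0.378 for CRY2, −0.20 ± 0.345 for NR1D2 and −0.04 ± 0.349 for DBP. The alternative settings reuse the same 8 lists, so a kept sign is no further support. The PER3 difference stayed below 0 under every alternative run. The CRY2 difference did so under every one that ranked it, which the half-length lists did not. That of CLOCK was −0.11 without H2A.Z.1 subconfluent Exp2, that of BMAL1 was 0.23 with a 2 kb window and that of NR1D2 was 0.33 with the summit in the window, so their signs are not settled. Those of CRY1 and DBP also changed sign under some alternatives. For NR1D1 the difference was −0.97 ± 0.353. It stayed between −1.18 and −0.78 under the alternatives. It was −1.12 ± 0.499 for H2A.Z.2 and −0.81 ± 0.499 for H2A.Z.1, and −0.98 in Exp1 alone and −0.96 in Exp2 alone. The median of the 8 clock genes was −0.16, with 2 of 8 above 0, against a median of −0.00 with 49.8% above 0 over all ranked genes.

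The score differences of H2A.Z.2 minus H2A.Z.1 were −0.37 ± 0.374 for CLOCK, 0.49 ± 0.389 for BMAL1, 0.44 ± 0.363 for PER3 and −0.43 ± 0.378 for CRY2 (± SE). Those of CRY1 and NR1D2 were 0.00, with SEs of 0.358 and 0.345, that of NR1D1 was 0.11 ± 0.353 and that of DBP 0.14 ± 0.349. The sign was kept under every alternative for CLOCK and PER3, and for CRY2 under every one that ranked it. BMAL1 was at −0.23 with a 2 kb window, which takes in its inner stretch, and NR1D2 at −0.35 with the summit in the window. The median was 0.06, with 6 of 8 above 0, against 50.02% above 0 over all ranked genes. Within experiments, the sign was the same in Exp1 and Exp2 for 4 of 8 genes by state (BMAL1, PER3, CRY2 and NR1D1) and for 5 of 8 by isoform (CLOCK, BMAL1, PER3, CRY2 and DBP).

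**Figure D5:**
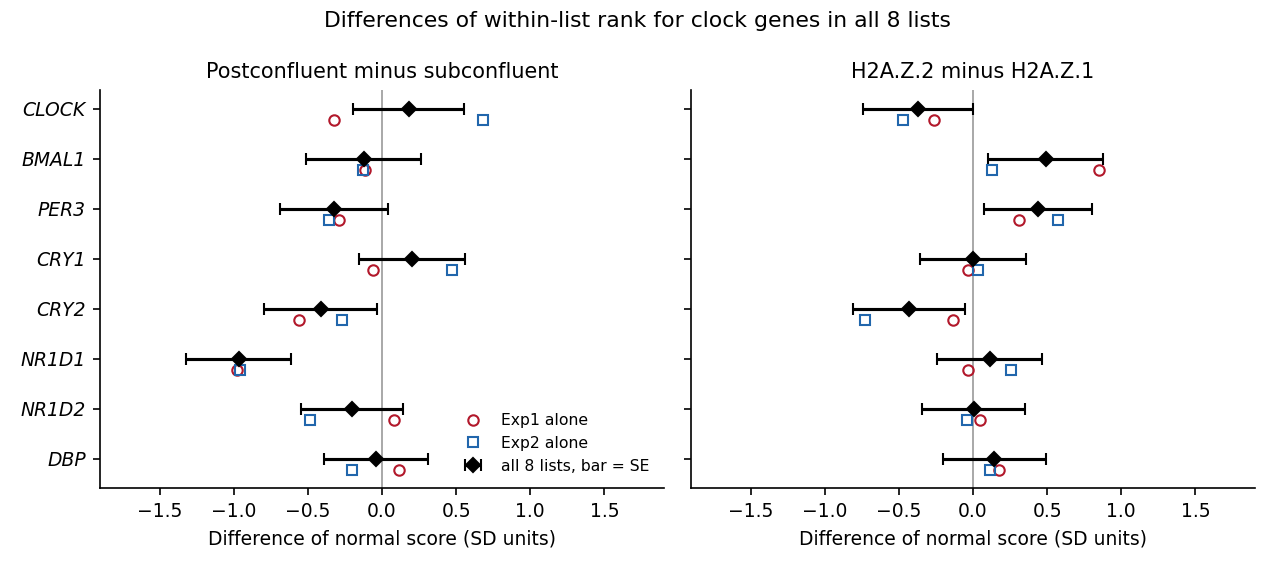
Difference of normal score (horizontal axis, SD units) for the 8 ranked clock genes, postconfluent minus subconfluent on the left and H2A.Z.2 minus H2A.Z.1 on the right. Diamonds are the fit over 8 lists with bars of 1 SE, circles Exp1 alone and squares Exp2 alone. NR1D1 lies at −0.97 on the left with both experiments beside it, and the isoform differences run from −0.43 to 0.49.

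NR1D1 had the widest range of its 4 group mean scores among the ranked clock genes, 1.12. The genes with the most similar 8 scores were ZNF488 on chromosome 10 (Euclidean distance 0.688), UQCRC1 on chromosome 3 (0.786) and KIF26A on chromosome 14 (0.792), out of 10885 genes over 8 lists.

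The motifs were searched in the letters of 300-base RefSeq promoters on both strands, without merging overlaps, in 15 promoters of the 10 clock genes. The E-box CACGTG was in 2 of 15, PER1 and the second NR1D2 start, against 7.26% of all 35116 promoters. The D-box (TTATGTAA or TTACGTAA) was in 3 of 15, PER2, PER3 and NR1D2, against 1.01%. The RORE core (TAGGTCA or TGGGTCA) was in 4 of 15, at the inner starts of CLOCK, BMAL1, CRY2 and NR1D2, against 5.69%. The CRE (TGACGTCA) was in none, against 1.85%. A match is a string of letters and shows neither binding nor its absence, and promoters of 1 gene can overlap.

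Of 20 further clock genes (paralogues, ROR receptors, PAR bZIP factors, kinases and ubiquitin ligases of the loop), 15 were present in all 8 lists and RORA in 7, while RORB, TEF and NFIL3 were in none. The highest means were those of FBXW11 (96.7, range 94.2 to 99.6), a ubiquitin ligase subunit, and CIART (88.9, range 77.5 to 97.4), a repressor of the clock. None of the 20 was present in all lists of one state or isoform and none of the other. Occupancy measures no RNA and so cannot show the cell type. Of 8 colon epithelium markers, 3 (CDH1, CDX2 and HNF4A) were in all 8 lists and the other 5 in some. Of markers of other cell types, CD14 (blood) and COL1A1 (fibroblast) were in all 8, PECAM1 (endothelium) in 7, CD3E (blood) in 6 and PDGFRB (fibroblast) in 4. PTPRC (blood), COL1A2 and DCN (fibroblast), and VWF and CDH5 (endothelium) were in none.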

How the data were processed

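The 8 peak lists were used as deposited, 1 per sample, so replicates were not pooled. Per the submitters' processing notes, hg38, BWA and deepTools were used. No source used here names the peak caller or its control, or says whether the spike-in entered any value. The deposited score column is 10 times the −log10 q-value and was not used. The authors' fold enrichment (a ratio) ranked intervals within a list, the deposited −log10 p-value set which intervals were kept, and the last deposited column gave the summit. Chromosomes 1 to 22, X and Y were used. An interval counted at a gene end when it overlapped the 1 kb on either side by at least 1 bp. Where both ends could be used in the fit across genes, the end with the higher mean percentile was taken. Strand came from the RefSeq promoter table, for 15842 of 20033 genes. Scores were fitted with 1 mean for each of the 4 groups and a spread shared by all (limma 3.58.1 under R 4.3.3), 2-sided, at a Benjamini-Hochberg threshold of 0.05, and the fit was tested on simulated data. The genes described, the further clock list, the markers and the tests were chosen with earlier results of these data known. All 10 clock genes are named. Of the further list, the 3 with the highest mean and those in no list are named, and for the clock gene with the widest range of group means the 3 most similar genes. Some genes that fall under these rules are not reported here. Alternatives were list length, a 2 kb window, the summit, ranking by −log10 p, a replicate block, leaving out each list and, added after seeing the data, the 5′ end by strand.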

Additional observations from a re-analysis of the deposited data

Results flagged for a closer look

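CLOCK had state differences that ran opposite ways in the isoforms. With tagged H2A.Z.2, both postconfluent percentiles (85.5 and 80.4) lay below both subconfluent ones (93.9 and 87.3). With tagged H2A.Z.1, both postconfluent percentiles (93.9 and 97.9) lay above both subconfluent ones (93.8 and 74.3), in 1 pair by a small margin. The state difference of the score was −0.53 ± 0.528 for H2A.Z.2 and 0.89 ± 0.528 for H2A.Z.1 (± SE, 2 lists a group), and the first minus the second was −1.43 ± 0.747. In the limma fit of this difference over 10885 genes no gene was called after Benjamini-Hochberg adjustment, CLOCK included. How many of the 10885 genes show opposite state differences in the isoforms was not counted. Nothing is therefore read from CLOCK showing them, or from it not being called. The CLOCK difference between isoforms leans on single lists. Without H2A.Z.1 subconfluent Exp2, the lowest CLOCK percentile, the H2A.Z.1 state difference was 0.32 ± 0.626 and the difference between isoforms −0.85 ± 0.808. Over the alternatives the difference between isoforms ranged over −1.998 to −0.85.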

How the results depend on the processing

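None of the clock genes was called by limma under any alternative run, and nothing is read from that, for the reason given with the fit. The count of all genes that differed between postconfluent and subconfluent lists, 5, was 0 in half-length lists, 3 with the summit in the window, 41 when ranked by −log10 p and 9 with Exp1 and Exp2 as a replicate block. Leaving out 1 list at a time gave 0 to 5, and the count was 0 without either isoform's subconfluent Exp2 list, without postconfluent Exp1 of H2A.Z.2 or without postconfluent Exp2 of H2A.Z.1, 2 without subconfluent Exp1 of H2A.Z.2 and 3 without postconfluent Exp1 of H2A.Z.1. The block changed no call of a clock gene. Deviations of same-numbered lists correlated by −0.06 to 0.21 over 6 pairs of groups, with 0.16 for H2A.Z.2 and 0.21 for H2A.Z.1 between states. Not every pair exceeded 0.1, so pairing by experiment was not established. No alternative called a gene by isoform or for the difference between isoforms. The count of genes present in one state only, 45, was 26 in whole lists, 27 at the 5′ end by strand and 58 to 71 with 1 list left out. The count by isoform, 10, was 20 in whole lists, 6 at the 5′ end by strand and 15 to 26 with 1 list left out. The causes were not tested. By construction, fewer lists have to fit the pattern when 1 is left out. Only the 15842 genes with a known strand can be counted at the 5′ end by strand. Clock genes in every list numbered 6 in half-length lists to 9 in whole lists, against 8. Over all 20033 genes the counts moved the same way, from 7560 in half-length lists to 11599 in whole lists, against 10917. The state difference of NR1D1 ranged over −1.18 to −0.78. Mean percentiles of clock genes moved in 17 of 22 recalculations with whole lists, half-length lists or −log10 p ranks. A percentile depends by construction on how many less significant intervals its list keeps. The cause under −log10 p ranks was not tested. Of the score differences of clock genes, 3 moved by more than the spread between replicates: that of BMAL1 by isoform with a 2 kb window (−0.23), and those of NR1D2 by state (0.33) and isoform (−0.35) with the summit in the window. Depth is unknown, and presence is limited by the length of the shortest list.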
